A study of Homo sapiens with 4 samples.

Results

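The proteasome is the protease complex that degrades ubiquitin-tagged proteins, and its subunits, regulators and assembly factors were followed here at the RNA level in DU145 cells after knockdown of DCUN1D1. DU145 is an established human prostate carcinoma cell line that grows without androgen. The members were all probe sets whose annotation names a single gene with a symbol that starts with PSMA to PSMG and a number. This took 96 of 40914 probe sets and 51 of 19774 genes. Of these, 84 probe sets and 44 genes belong to the proteasome, and 7 further symbols (12 probe sets) only share the letters and are described apart. PSMB11, PSMC5, PSMD7 and PSMD13 were not analysed here.

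RNA was measured on 4 arrays, 2 of DU145 cells stably transduced with lentivirus carrying an shRNA against DCUN1D1 (shDCUN1D1) and 2 of DU145 cells carrying an shRNA against GFP (shGFP, the control). By the sample records, all cells were cultured for 16 h before RNA extraction, and the records also name DMSO for both groups, with no dose. The methods instead describe collection of RNA days after infection, and it is not settled here which applies. The 2 arrays of a group are described as biological duplicates. According to the methods, DCUN1D1 was targeted with 2 different shRNAs, and the sources used here do not tell which of them each array carried. Below, array values are log2 signals, listed in the order of replicate 1 and replicate 2.

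The proteasome has a barrel-shaped core particle made of alpha and beta subunits, with the protease sites on 3 of the beta subunits inside. The core is capped by a regulatory particle whose base holds ATPases that unfold substrates and whose lid removes ubiquitin chains. Other activators can take the place of the cap, and dedicated chaperones build both parts. DCUN1D1 promotes the attachment of NEDD8 to cullins, the scaffolds of ubiquitin ligases that send proteins to the proteasome. The transcription factor NFE2L1 (also called NRF1) is known to raise proteasome genes together when proteasome activity is short.

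The arrays differed in ways that bear on every result below. DCUN1D1 itself read 1.60 and 1.45 in the shDCUN1D1 arrays and 2.55 and 1.99 in the shGFP arrays. Its log2 fold change was -0.75 ± 0.26 (limma's moderated standard error), which did not pass limma's test (adjusted p = 0.590). This is the brightest of its 6 probe sets. The other 5 had values between -0.47 and 0.12, and the mean of the 6 gave -0.22. The signal of the brightest set was below background in all 4 arrays, taken as a nonspecific control probe set with 20 bases of G or C. That control, which no transcript should bind, read 2.48 and 2.51 in the shDCUN1D1 arrays and 2.97 and 3.30 in the shGFP arrays, and 10.4% to 27.8% of genes lay above it. The array shDCUN1D1 replicate 1 stood apart. The 3′ control probe set of GAPDH read 10.82 in it and 5.09 in shDCUN1D1 replicate 2, against 5.02 and 4.68 in the shGFP arrays. The middle probe set of GAPDH differed less, with 11.07 and 10.01 in the shDCUN1D1 arrays and 9.39 and 9.05 in the shGFP arrays, as did the 5′ probe set, with 9.67 and 7.14 in the shDCUN1D1 arrays and 6.6 and 6.42 in the shGFP arrays. The hybridization control BioB read 6.37 and 6.22 in the shDCUN1D1 arrays and 8.22 and 10.49 in the shGFP arrays. The part of these differences in the results was not tested. Of the epithelial markers, KRT8 lay above the nonspecific control in all 4 arrays, while EPCAM, CDH1, KRT19 and CLDN4 lay under it in all 4, as did the 4 leukocyte and 4 endothelial markers measured. KRT18 read 7.62 and 1.69 in the shDCUN1D1 arrays, against 1.68 and 1.63 in the shGFP arrays, and the summed linear signal of the 6 epithelial markers was 223 and 27.8 in the shDCUN1D1 arrays, against 28.6 and 35.4 in the shGFP arrays. Of the 4 fibroblast markers, only COL1A1 was above the nonspecific control in any array. Of the 3 markers of luminal prostate cells measured, none was above the nonspecific control in all 4 arrays.

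Most proteasome genes did not differ between shDCUN1D1 and shGFP cells beyond the spread of the arrays. A gene was called past the fold bound where the near end of the 90% interval of its fold change exceeded 1.2-fold. PSMD12, a lid subunit, was the only proteasome gene of the 44 past it upwards, where 1.57% of all genes passed. The arrays measure whole cultures, so a change in RNA per cell and a change in the share of cells with a transcript cannot be told apart. No proteasome gene passed downwards, where 3.64% of all genes did. With limma's adjusted p at 0.05, 0 of the 44 genes were called, and 0% of all genes, with the members' adjusted p running between 0.590 and 0.990. At an unadjusted p under 0.05, limma also gave 0 members, against 463 higher and 1196 lower among all genes. The 2 counts past the fold bound are near or below the shares over all genes and are no result about the proteasome.

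Over the 44 genes, the median of the log2 fold changes was 0.24, against -0.01 over all 19774 genes, with 31 positive and 13 negative. This median moved with each array. It was 0.02 without shDCUN1D1 replicate 1, 0.40 without shDCUN1D1 replicate 2, 0.47 without shGFP replicate 1 and 0.17 without shGFP replicate 2. It also depended on scaling, since quantile normalization gave a median of 0.01 with 22 positive genes. Both shDCUN1D1 arrays were above both shGFP arrays for 10 of the 44 genes, against 18.4% of all genes, and below both for 6 of them, against 26.3% of all genes. Replicates of the members were also more spread in the shDCUN1D1 group, with a median SD of 0.47, than in the shGFP group, with a median SD of 0.23 (n = 2 arrays each). Over all genes these medians were 0.18 and 0.15.

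**Figure D1:**
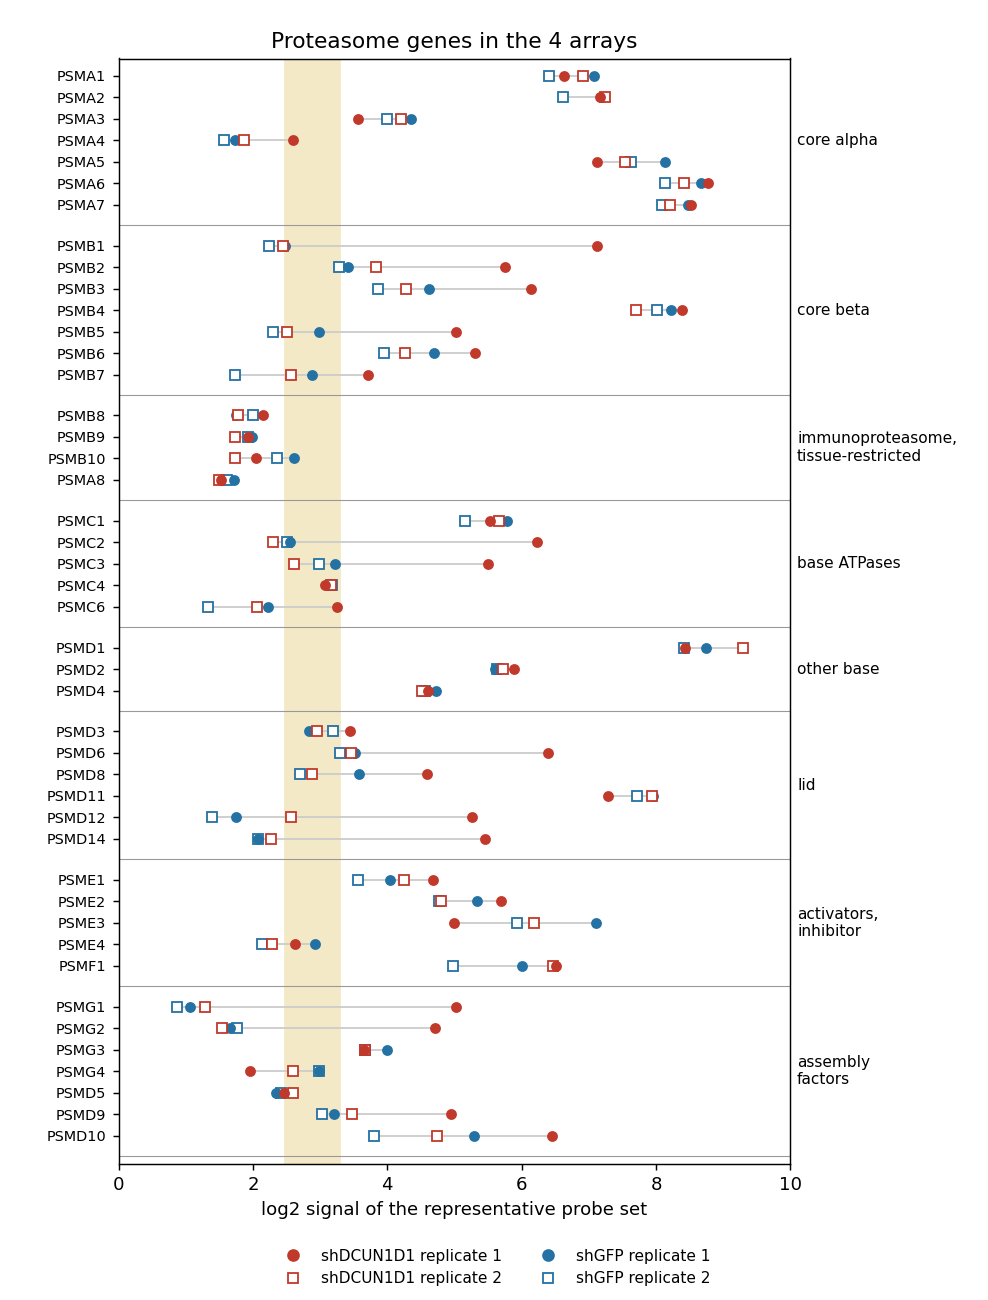
Log2 signal of the 44 proteasome genes (x axis) in the 4 arrays, by role, with shDCUN1D1 in red and shGFP in blue, a filled circle for replicate 1 and an open square for replicate 2. The shaded band spans the nonspecific control, 2.48 to 3.30, and the immunoproteasome and tissue-restricted genes lie under or within it while shDCUN1D1 replicate 1 lies far right of the other arrays for genes such as PSMB1 and PSMG1.

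Across the members, shDCUN1D1 replicate 2 was closer to the control arrays than to its own replicate. Pearson's r across these genes, which are not independent replicates, was 0.986 and 0.981 between shDCUN1D1 replicate 2 and the shGFP arrays, 0.985 between the shGFP arrays, and 0.776 between the shDCUN1D1 arrays. The median signal of the members was 5.14 and 3.47 in the shDCUN1D1 arrays and 3.47 and 3.24 in the shGFP arrays. Replicate 1 of shDCUN1D1 was the highest of the 4 arrays for 27 of the 44 genes, against 22.0% of all genes. For 9 genes (PSMB1, PSMB5, PSMC2, PSMC3, PSMD6, PSMD12, PSMD14, PSMG1 and PSMG2) it was over 2 log2 units above each other array, against 4.32% of all genes. Among genes whose shGFP mean lay above the nonspecific control, 1 of 24 proteasome genes (PSMD6) did so, against 3.18% of all such genes. These counts describe 1 array and have no replicate check.

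**Figure D2:**
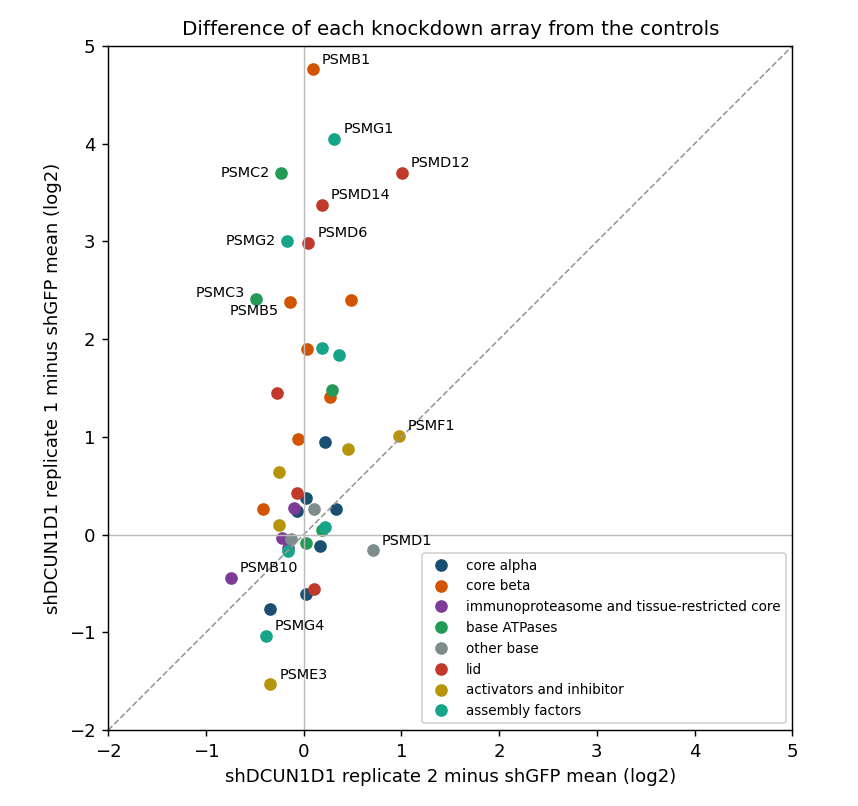
Difference from the shGFP mean (log2) of shDCUN1D1 replicate 1 (y axis) against shDCUN1D1 replicate 2 (x axis), 1 point per proteasome gene, coloured by role, with the dashed line marking equal differences. Points spread along the y axis to 4.76 for PSMB1, while only PSMD12 passes 1 on the x axis.

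The alpha subunits form the outer rings of the core and gate the entry to its chamber. None of the 7 passed the fold bound or the adjusted test. Their median log2 fold change was 0.09, and -0.41 after quantile normalization, so that the group has no settled direction. PSMA6 read 8.78 and 8.42 in the shDCUN1D1 arrays and 8.68 and 8.13 in the shGFP arrays. PSMA7 read 8.53 and 8.21 in the shDCUN1D1 arrays and 8.48 and 8.09 in the shGFP arrays. For both genes the groups overlapped, with log2 fold changes of 0.20 ± 0.41 and 0.09 ± 0.40 (SE).

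The extremes of the alpha group did not overlap between groups, and neither passed a test. PSMA4 read 2.59 and 1.87 in the shDCUN1D1 arrays, against 1.73 and 1.56 in the shGFP arrays, and its log2 fold change was 0.58 ± 0.30 (adjusted p = 0.590, limma). PSMA5 read 7.12 and 7.54 in the shDCUN1D1 arrays, against 8.13 and 7.63 in the shGFP arrays. Its log2 fold change of -0.55 ± 0.47 had a 90% interval that ran between -1.51 and 0.40. The other 3, PSMA1, PSMA2 and PSMA3, had fold changes between -0.29 and 0.30 and overlapping groups. In all but PSMA4, the alpha genes lay above the nonspecific control in every array.

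The beta subunits form the inner rings, and 3 of them carry the active sites. The 7 constitutive genes had a median of 0.97 for the log2 fold change (0.67 after quantile normalization) with 6 positive, and none passed either test. Shown apart, the median difference from the shGFP mean was 1.90 in shDCUN1D1 replicate 1 and 0.03 in shDCUN1D1 replicate 2. All 7 were highest in shDCUN1D1 replicate 1.

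PSMB1, a structural beta subunit, had the largest log2 fold change of the 44 representative probe sets. Its second set, almost as bright, had 1.5 and the mean of its 3 sets 1.39, below the 2.18 of PSMG1. It read 7.12 and 2.45 in the shDCUN1D1 arrays, against 2.47 and 2.24 in the shGFP arrays. A single array was high, the groups overlapped, and the fold change of 2.43 ± 1.55 had a 90% interval between -0.71 and 5.57. PSMB2, another structural subunit, read 5.75 and 3.83 in the shDCUN1D1 arrays, against 3.41 and 3.29 in the shGFP arrays. Both of its knockdown arrays were above both control arrays, but by unequal amounts, and the fold change was 1.44 ± 0.74 (adjusted p = 0.590, limma). PSMB4 had the lowest fold change of the group, at -0.07 ± 0.45, from 8.38 and 7.71 in the shDCUN1D1 arrays and 8.23 and 8.01 in the shGFP arrays.

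The 3 catalytic subunits showed the same shape on a smaller scale. PSMB5, which carries the chymotrypsin-like site and is the main target of bortezomib, read 5.02 and 2.5 in the shDCUN1D1 arrays and 2.98 and 2.29 in the shGFP arrays. PSMB6, with the caspase-like site, read 5.31 and 4.27 in the shDCUN1D1 arrays and 4.70 and 3.95 in the shGFP arrays. PSMB7, with the trypsin-like site, read 3.71 and 2.57 in the shDCUN1D1 arrays and 2.88 and 1.74 in the shGFP arrays. In each of them the second knockdown array lay between the control arrays, so the groups overlapped. Their log2 fold changes were 1.12 ± 0.90, 0.46 ± 0.61 and 0.84 ± 0.59, and the intervals of all 3 included 0.

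Cells exposed to interferon exchange the catalytic subunits for PSMB8 (in place of PSMB5), PSMB9 (in place of PSMB6) and PSMB10 (in place of PSMB7), which gives the immunoproteasome. PSMA8 is an alpha subunit of the testis. All 4 lay under the nonspecific control in all 4 arrays, so their differences are between signals at background. PSMB8 read 2.14 and 1.77 in the shDCUN1D1 arrays and 1.74 and 2.0 in the shGFP arrays. PSMB9 read 1.93 and 1.74 in the shDCUN1D1 arrays and 1.99 and 1.93 in the shGFP arrays. For these genes the log2 fold changes were 0.09 ± 0.23 and -0.13 ± 0.19.

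PSMB10 had the largest difference of this group. It read 2.04 and 1.74 in the shDCUN1D1 arrays, against 2.60 and 2.35 in the shGFP arrays. Its log2 fold change was -0.59 ± 0.25, and the near end of the interval, 1.06-fold, missed the bound. PSMA8 read 1.53 and 1.5 in the shDCUN1D1 arrays and 1.72 and 1.61 in the shGFP arrays, with a log2 fold change of -0.15 ± 0.14. The nonspecific control itself read lower in both shDCUN1D1 arrays than in both shGFP arrays, and its part in these differences was not tested.

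Genes of the interferon response and of antigen processing, set here beside the immunoproteasome, showed no common shift. Of the 15 listed, 14 were measured, 1 was past the fold bound upwards (1.57% of all genes were) and 0 downwards (3.64% of all genes were), and the median log2 fold change was 0.06. Of the 14, 8 lay above the nonspecific control in no array and 1 in all 4. The lack of a shift among signals at background therefore says little about the pathway. The called gene was IRF9, part of the factor that carries the type I interferon signal to the nucleus. IRF9 read 2.34 and 1.92 in the shDCUN1D1 arrays, against 1.43 and 1.33 in the shGFP arrays, below the nonspecific control in each array. Its call was lost without shDCUN1D1 replicate 1 (0.54), without shGFP replicate 1 (0.80) and without shGFP replicate 2 (0.70). B2M, the light chain of MHC class I, read 9.61 and 2.11 in the shDCUN1D1 arrays, against 1.42 and 1.5 in the shGFP arrays. Its high value came from the same single array as those of the proteasome genes. ISG15, a ubiquitin-like protein induced by interferon, read 4.18 and 2.89 in the shDCUN1D1 arrays and 3.88 and 4.14 in the shGFP arrays, with overlapping groups.

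The base ATPases unfold substrates and thread them into the core. For the 5 genes measured, the median log2 fold change was 0.88 (0.52 after quantile normalization), none passed either test, and the difference from the shGFP mean had a median of 1.48 in shDCUN1D1 replicate 1 and 0.02 in shDCUN1D1 replicate 2. PSMC2 read 6.23 and 2.30 in the shDCUN1D1 arrays, against 2.56 and 2.51 in the shGFP arrays. PSMC3 read 5.5 and 2.61 in the shDCUN1D1 arrays, against 3.21 and 2.98 in the shGFP arrays. Both genes were high in a single array and lower in the other knockdown array than in either control array. Their log2 fold changes were 1.73 ± 1.31 and 0.96 ± 1.00.

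The remaining ATPases varied less. PSMC6 read 3.25 and 2.06 in the shDCUN1D1 arrays and 2.22 and 1.34 in the shGFP arrays, with a log2 fold change of 0.88 ± 0.52. PSMC4 read 3.07 and 3.17 in the shDCUN1D1 arrays and 3.12 and 3.18 in the shGFP arrays. That gene differed by less than its replicates, with a log2 fold change of -0.03 ± 0.32. PSMC1 was likewise flat, at 0.12 ± 0.53.

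PSMD1 and PSMD2 are the scaffolds of the base, and PSMD4 is a receptor for ubiquitin chains. None of the 3 passed either test, and their median log2 fold change was 0.18, but -0.59 after quantile normalization. PSMD1 read 8.43 and 9.29 in the shDCUN1D1 arrays and 8.75 and 8.42 in the shGFP arrays. PSMD2 read 5.89 and 5.73 in the shDCUN1D1 arrays and 5.61 and 5.64 in the shGFP arrays. PSMD4 read 4.60 and 4.52 in the shDCUN1D1 arrays and 4.72 and 4.56 in the shGFP arrays. All 3 lay above the nonspecific control in every array, and in none did the difference exceed its standard error.

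The lid removes ubiquitin chains before degradation. For the 6 genes measured, the median log2 fold change was 1.05 (0.67 after quantile normalization), 5 of them positive, with 2.22 as the median difference in shDCUN1D1 replicate 1 and 0.08 in shDCUN1D1 replicate 2. PSMD12, a scaffold subunit of the lid, read 5.27 and 2.57 in the shDCUN1D1 arrays, against 1.74 and 1.39 in the shGFP arrays. Both knockdown arrays were above both control arrays, by unequal amounts. The fold change was 2.35 ± 0.92 on the log2 scale, with a 90% interval between 0.49 and 4.21, and the near end of 1.41-fold passed the bound. The adjusted p was 0.590 (limma).

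The PSMD12 call did not hold in every subset. Without shDCUN1D1 replicate 1 the log2 fold change was 1.01 and still past the bound, where 3.59% of all genes were. Without shGFP replicate 1 it was 2.53, and without shGFP replicate 2 it was 2.18, neither past the bound. For this probe set, both shDCUN1D1 arrays lay above the nonspecific control of their own array and both shGFP arrays lay below it. In shDCUN1D1 replicate 2 the margin was narrow, 2.57 against a control of 2.51. The control read higher in the shGFP arrays, at 2.97 and 3.30. The other probe set of PSMD12 read 1.75 and 1.25 in the shDCUN1D1 arrays and 1.06 and 1.2 in the shGFP arrays, under the nonspecific control throughout, with a log2 fold change of 0.37 ± 0.19.

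PSMD14, the deubiquitinase of the lid, read 5.45 and 2.26 in the shDCUN1D1 arrays, against 2.08 and 2.08 in the shGFP arrays. Both knockdown arrays were higher, the second by only 0.18, and the log2 fold change was 1.78 ± 1.07. PSMD6 read 6.40 and 3.46 in the shDCUN1D1 arrays, against 3.52 and 3.30 in the shGFP arrays. Its groups overlapped, with a log2 fold change of 1.52 ± 1.04. PSMD11 had the only negative value of the lid, -0.22 ± 0.47, from 7.28 and 7.94 in the shDCUN1D1 arrays and 7.95 and 7.71 in the shGFP arrays. PSMD3 and PSMD8 had log2 fold changes of 0.18 and 0.59 and overlapping groups.

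The activators open the core without the regulatory particle. PSME1 and PSME2 form an interferon-inducible ring, PSME3 forms a ring of the nucleus, PSME4 is a large activator of the nucleus, and PSMF1 was described as an inhibitor of the core. The median log2 fold change of the 5 genes was 0.19, and -0.14 after quantile normalization, so that no direction holds for the group. PSME1 read 4.68 and 4.25 in the shDCUN1D1 arrays, against 4.04 and 3.57 in the shGFP arrays. PSMF1 read 6.51 and 6.47 in the shDCUN1D1 arrays, against 6.01 and 4.98 in the shGFP arrays. For both, the knockdown arrays lay above the control arrays and above the nonspecific control.

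PSMF1 was among the genes whose knockdown arrays read alike. Its log2 fold change was 0.99 ± 0.59 (adjusted p = 0.590, limma), 0.98 without shDCUN1D1 replicate 1 and 1.01 without shDCUN1D1 replicate 2. The spread was on the control side, and the value was 1.51 without shGFP replicate 1 and 0.48 without shGFP replicate 2. After quantile normalization the value of PSMF1 was 0.27, and the mean of its 4 probe sets gave 0.24. Its dimmer sets had -0.18, 0.38 and -0.21. The fold change of PSME1 was 0.66 ± 0.47.

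PSME3 had the most negative value of the 44 representative probe sets. The mean of its 4 sets gave -0.47, less negative than the -0.59 of PSMB10. The brightest set of PSME3 read 4.99 and 6.18 in the shDCUN1D1 arrays and 7.11 and 5.93 in the shGFP arrays. The groups overlapped, and the log2 fold change of -0.93 ± 0.73 had an interval between -2.42 and 0.55. PSME2 read 5.69 and 4.81 in the shDCUN1D1 arrays and 5.34 and 4.77 in the shGFP arrays. PSME4 read 2.63 and 2.28 in the shDCUN1D1 arrays and 2.92 and 2.14 in the shGFP arrays. Neither differed beyond its replicates, with log2 fold changes of 0.19 ± 0.59 and -0.08 ± 0.37.

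The assembly factors are chaperones that leave the finished particle. PSMG1 to PSMG4 build the core, and PSMD5, PSMD9 and PSMD10 build the base. Their median log2 fold change was 1.05 (0.53 after quantile normalization), with 1.83 as the median difference in shDCUN1D1 replicate 1 and 0.19 in shDCUN1D1 replicate 2, and none passed either test. PSMG1 read 5.02 and 1.28 in the shDCUN1D1 arrays, against 1.07 and 0.87 in the shGFP arrays. PSMG2, its partner in a heterodimer, read 4.71 and 1.54 in the shDCUN1D1 arrays, against 1.66 and 1.76 in the shGFP arrays. In both genes, 1 array was above the nonspecific control and the other 3 were below it, and the log2 fold changes were 2.18 ± 1.22 and 1.42 ± 1.05.

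PSMG3 and PSMG4 form the second heterodimer of core assembly. PSMG3 read 3.66 and 3.67 in the shDCUN1D1 arrays and 3.99 and 3.67 in the shGFP arrays. PSMG4 read 1.96 and 2.60 in the shDCUN1D1 arrays, against 2.99 and 2.99 in the shGFP arrays. Both had knockdown arrays below the control arrays, though for PSMG3 the nearest arrays read the same when rounded, and neither passed the bound. The log2 fold changes were -0.17 ± 0.40 and -0.71 ± 0.34, and the near end of the interval for PSMG4 was 1.02-fold.

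Of the base chaperones, PSMD9 and PSMD10 were highest in shDCUN1D1 replicate 1, and PSMD5 was highest in shDCUN1D1 replicate 2. PSMD9 read 4.95 and 3.48 in the shDCUN1D1 arrays, against 3.21 and 3.03 in the shGFP arrays. PSMD10, also known as gankyrin, read 6.45 and 4.73 in the shDCUN1D1 arrays and 5.29 and 3.80 in the shGFP arrays. PSMD5 read 2.46 and 2.60 in the shDCUN1D1 arrays and 2.34 and 2.42 in the shGFP arrays. Groups were separate for PSMD9 and PSMD5 and overlapped for PSMD10. The log2 fold changes were 1.10 ± 0.61 for PSMD9, 1.05 ± 0.87 for PSMD10 and 0.15 ± 0.25 for PSMD5. The second set of PSMD5 read 2.82 and 1.68 in the shDCUN1D1 arrays and 1.68 and 1.64 in the shGFP arrays, with 0.59 ± 0.41.

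**Figure D3:**
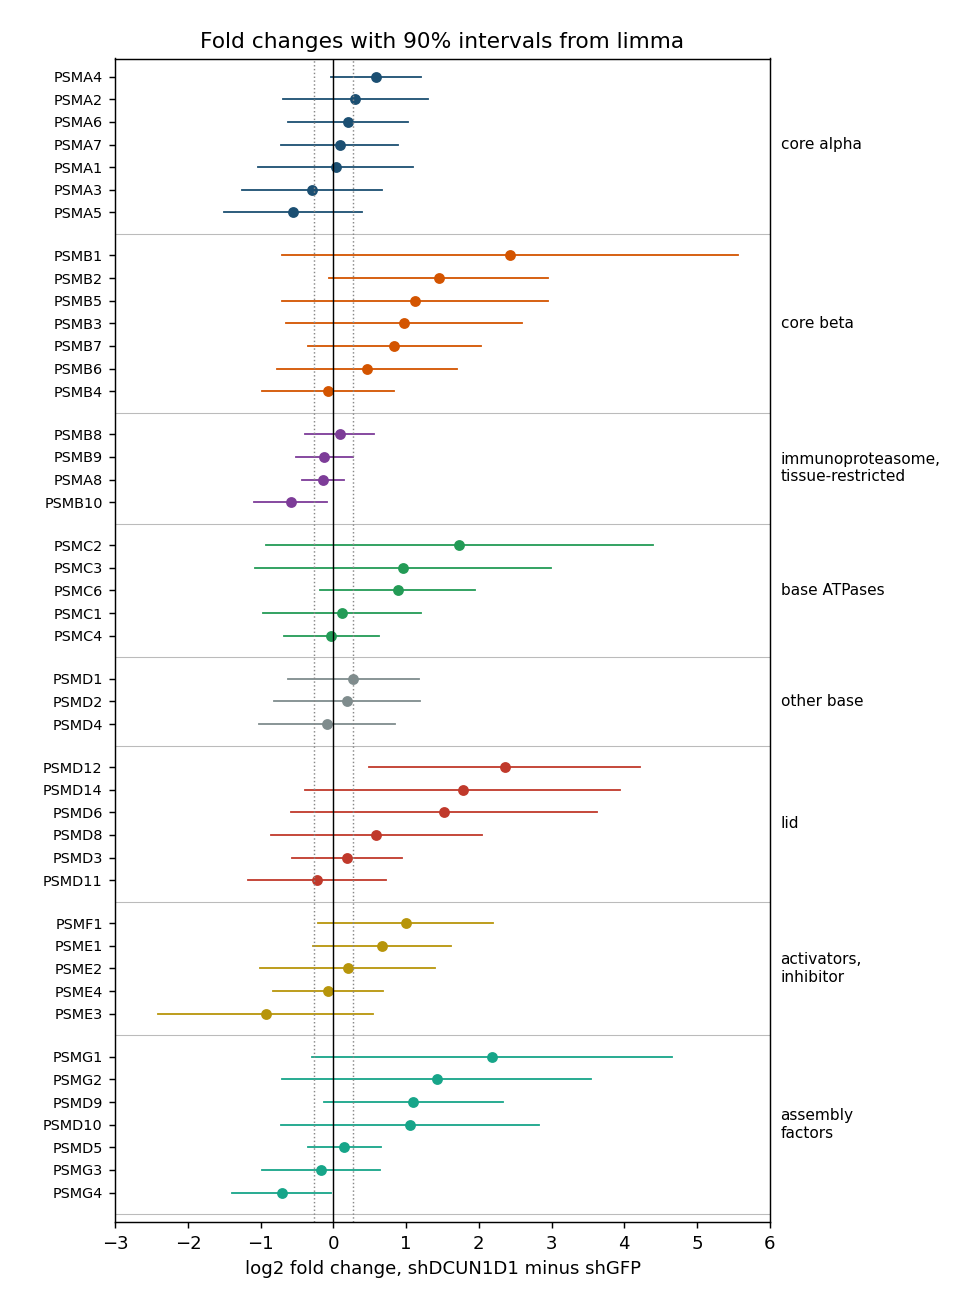
Log2 fold change, shDCUN1D1 minus shGFP (x axis), of each proteasome gene by role, with the 90% interval from limma as a bar and 1.2-fold in either direction as dotted lines. Of the 44 intervals, that of PSMD12 alone lies wholly beyond a dotted line, and wide intervals belong to genes such as PSMB1 whose shDCUN1D1 arrays differed.

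Leaving out shDCUN1D1 replicate 2 changed what was called among the members. Without shDCUN1D1 replicate 2, 17 of the 44 genes were past the fold bound upwards, against 11.4% of all genes, and 1 (PSMG4) downwards, against 2.98% of all genes. In that subset limma called 9 of the 44, against 7.3% of all genes, with adjusted p between 0.00443 for PSMG1 and 0.0485 for PSMB5. These 9 are the genes in which shDCUN1D1 replicate 1 was over 2 log2 units above each other array. A group of 1 array is then assumed to vary like the control arrays. Without shDCUN1D1 replicate 1, PSMD12 was the only gene past the bound, and limma's adjusted p called none.

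The excess of over 2 log2 units in shDCUN1D1 replicate 1 was then set beside the brightness of a gene in the shGFP arrays. These do not hold the array counted, but their values enter the excess, so brightness and excess are not independent. The representative probe set was also chosen by a mean that includes the array counted. Of all 19774 genes, 12758 lay above the nonspecific control in no array, against 4 of the 44 members. A shGFP mean of 2.5 or less was found in 14937 of all genes. The shares over all genes are therefore not matched to the members for expression. At a shGFP mean of 2.5 or less, 5 of 13 proteasome genes (38.46%) showed the excess, against 4.65% of all genes in that range. Between 2.5 and 4, 4 of 13 did (30.77%), against 3.22% of all genes. Between 4 and 6, 0 of 9 proteasome genes showed it, against 3.6% of all genes, and above 6, 0 of 9 did, against 3.74% of all genes. By their representative probe sets, all 9 members with the excess thus had a shGFP mean of 4 or less. The second set of PSMB4 also showed the excess, at 5.71 and 5.66 in the shGFP arrays. The 0 of 9 in each of the brighter ranges is near the share over all genes and is no result about bright members. The 9 brightest were PSMA1, PSMA2, PSMA5, PSMA6, PSMA7, PSMB4, PSMD1, PSMD11 and PSME3, with log2 fold changes between -0.93 and 0.30 and a median of 0.03.

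Promoters were read to see which letters the members share. Of the 44 genes, 38 were matched to a promoter window of 300 bases (RefSeq, GRCh38.p14), which runs 250 bases upstream and 50 bases downstream of a single start site per gene. For some genes, such as PSMA1 and PSMA6, that start lies inside the gene's full span and not at its outer end. The core of the antioxidant response element, TGACNNNGC, to which NFE2L1 is known to bind with small MAF proteins, was searched on both strands. It stood in 13 of the 38 windows (34.2%), against 13.6% of all 27305 windows. The CCAAT box, CCAAT, stood in 42.1% of the members' windows and 35.7% of all, and the ETS core, CCGGAAG, in 28.9% of the members' windows and 10.7% of all. Matches of different motifs can share bases. The windows of all genes were not matched to those of the members for base composition or expression. Of the 9 genes high in shDCUN1D1 replicate 1, 8 had a window, 3 of those held TGACNNNGC (37.5%), 6 held CCAAT (75%) and 4 held the ETS core (50%). The sequences with TGACNNNGC are shown because PSMD12 is the called gene and PSMG1 and PSMG2 are partners in assembly. Capitals mark TGACNNNGC on the strand of the gene, and its position is that of its first base from the start. A match is a description of letters, not of a bound site.
PSMD12 (chr17:67366528-67366827, minus strand, motif at -165): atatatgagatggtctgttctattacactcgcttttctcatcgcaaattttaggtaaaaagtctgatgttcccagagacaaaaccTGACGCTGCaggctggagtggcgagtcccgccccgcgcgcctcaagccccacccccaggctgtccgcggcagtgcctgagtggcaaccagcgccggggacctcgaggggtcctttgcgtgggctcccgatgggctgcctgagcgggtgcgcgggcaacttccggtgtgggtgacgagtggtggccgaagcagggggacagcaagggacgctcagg
PSMG1 (chr21:39183402-39183701, minus strand, motif at -183): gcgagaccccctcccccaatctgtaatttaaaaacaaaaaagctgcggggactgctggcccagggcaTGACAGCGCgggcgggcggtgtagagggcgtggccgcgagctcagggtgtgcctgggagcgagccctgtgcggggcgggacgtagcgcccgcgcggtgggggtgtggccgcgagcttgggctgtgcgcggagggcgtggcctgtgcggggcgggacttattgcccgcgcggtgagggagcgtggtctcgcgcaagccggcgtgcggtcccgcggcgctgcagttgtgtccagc
PSMG2 (chr18:12658488-12658787, plus strand, motif at -39): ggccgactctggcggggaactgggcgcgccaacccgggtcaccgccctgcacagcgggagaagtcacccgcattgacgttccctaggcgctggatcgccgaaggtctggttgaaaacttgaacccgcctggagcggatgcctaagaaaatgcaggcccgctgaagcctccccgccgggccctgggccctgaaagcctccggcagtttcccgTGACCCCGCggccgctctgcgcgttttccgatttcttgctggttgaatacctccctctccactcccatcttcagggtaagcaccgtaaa

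In these windows the motif stood at different distances from the start, PSMG1 also held CCAAT, and PSMD12 also held the ETS core. The rest of the 13 with TGACNNNGC were PSMB3, PSMB9, PSMC4, PSMD1, PSMD3, PSME1, PSME2, PSME4, PSMD5 and PSMD9. Their fold changes lay on either side of 0, with -0.13 for PSMB9, -0.03 for PSMC4 and -0.08 for PSME4 on the negative side and 1.10 for PSMD9 as the highest. NFE2L1 itself read 8.13 and 8.68 in the shDCUN1D1 arrays and 8.10 and 7.86 in the shGFP arrays, a log2 fold change of 0.43 ± 0.42.

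Separate probe sets of the same gene often differed. Of the 44 genes, 22 had several probe sets, and in 12 of these the log2 fold changes had both signs. Over the 84 probe sets, 54 were positive and 30 negative, with a median of 0.20, against -0.01 over all probe sets. Past the fold bound were 2 upwards, against 1.18% of all probe sets, and 1 downwards, against 2.38% of all probe sets. The second set of PSMD1 was called upwards beside that of PSMD12. It read 5.16 and 3.57 in the shDCUN1D1 arrays, against 2.56 and 2.15 in the shGFP arrays, a log2 fold change of 2.01 ± 0.65. The brighter set of PSMD1, given above, had 0.27 ± 0.44. The fourth set of PSMD4 was called downwards, with 1.74 and 1.64 in the shDCUN1D1 arrays and 2.35 and 3.11 in the shGFP arrays, all under the nonspecific control. The other 3 sets of PSMD4 had values between -0.08 and 1.17.

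Bright genes with a flat main probe set could have a dimmer one that was high in shDCUN1D1 replicate 1. The second set of PSMB4 read 8.07 and 5.93 in the shDCUN1D1 arrays, against 5.71 and 5.66 in the shGFP arrays. That of PSMA7 read 4.01 and 2.21 in the shDCUN1D1 arrays, against 1.85 and 1.56 in the shGFP arrays. In both, the main set differed by under 0.1 on the log2 scale and the second by 1.31 and 1.4. PSMB1 and PSMD10 were high in that array with 2 sets each, the second sets reading 5.51 and 4.95 in shDCUN1D1 replicate 1 and no more than 3.4 elsewhere. The third set of PSMB1 showed nothing of the kind, at 1.65 and 1.74 in the shDCUN1D1 arrays and 1.58 and 1.32 in the shGFP arrays. PSME3 kept its order with the second set, which read 4.68 and 6.05 in the shDCUN1D1 arrays and 6.42 and 5.59 in the shGFP arrays.

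**Figure D4:**
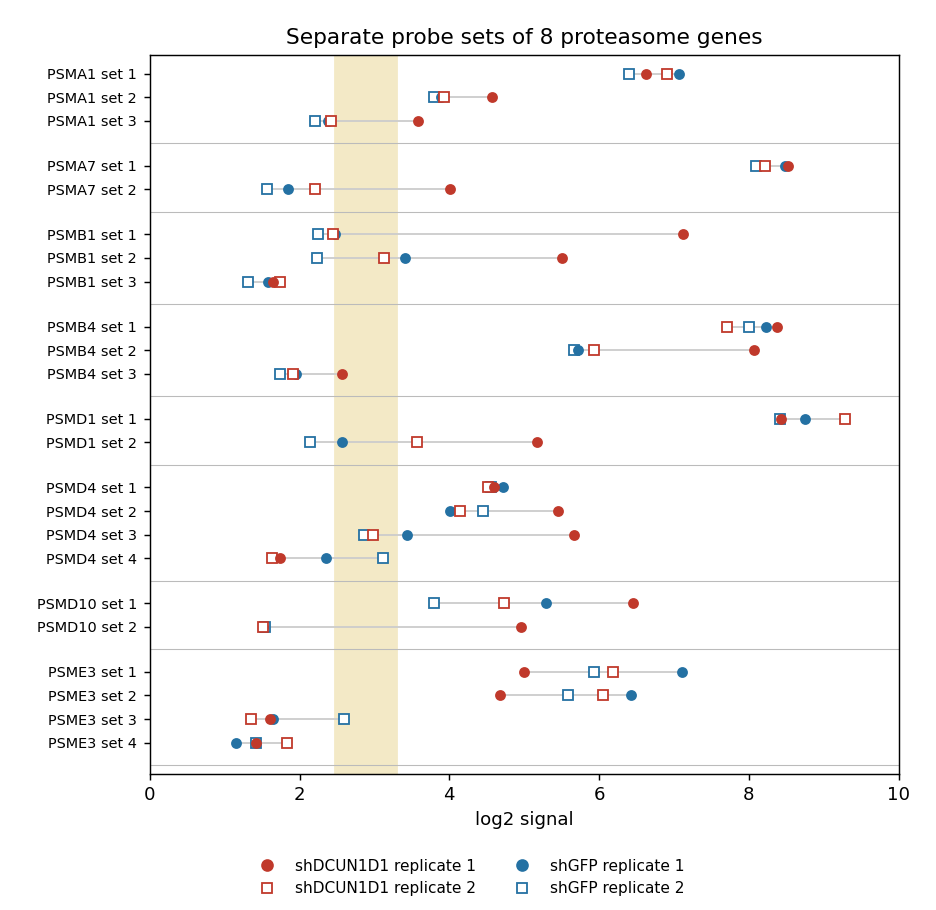
Log2 signal (x axis) of every probe set of 8 proteasome genes in the 4 arrays, with sets numbered by brightness, shDCUN1D1 in red and shGFP in blue, a filled circle for replicate 1 and an open square for replicate 2. The shaded band spans the nonspecific control, 2.48 to 3.30. For PSMA7, PSMB4 and PSMD1 the brightest set overlaps between the groups while the second set reaches 4.01, 8.07 and 5.16 in shDCUN1D1 replicate 1.

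Genes that act with the proteasome but carry other names also read high in shDCUN1D1 replicate 1 in several cases. Of the 23 measured, 2 were past the fold bound upwards (1.57% of all genes were) and 0 downwards (3.64% of all genes were). Of the 23, 20 were positive, and the median log2 fold change was 0.77, against -0.01 over all genes. Their median signal was 4.10 and 2.53 in the shDCUN1D1 arrays and 2.16 and 2.22 in the shGFP arrays. The median fold change thus leans on shDCUN1D1 replicate 1. In 7 of the 23, shDCUN1D1 replicate 1 was over 2 log2 units above each other array, against 4.32% of all genes. Of the 23, 2 lay above the nonspecific control in no array, against 12758 of all 19774 genes, so these shares are not matched for expression. POMP, the maturation factor of the core, read 6.64 and 2.04 in the shDCUN1D1 arrays, against 1.94 and 2.15 in the shGFP arrays. USP14, a deubiquitinase that binds the base, read 5.5 and 2.05 in the shDCUN1D1 arrays, against 1.43 and 1.64 in the shGFP arrays. UBQLN1, a shuttle for ubiquitinated proteins, read 5.14 and 1.56 in the shDCUN1D1 arrays, against 1.27 and 1.26 in the shGFP arrays. These 3 owed most of their difference to the same single array. Without it, their log2 fold changes were -0.0007 for POMP, 0.52 for USP14 and 0.29 for UBQLN1.

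The 2 called partners were higher in both knockdown arrays. ECPAS, an adaptor that binds the regulatory particle, read 3.91 and 3.28 in the shDCUN1D1 arrays, against 2.07 and 2.28 in the shGFP arrays, a log2 fold change of 1.42 ± 0.36. With the mean of its probe sets it was 0.41 and no longer called, and without shGFP replicate 1 it was 1.31 and not called. NPLOC4, a cofactor of the segregase VCP, read 3.40 and 3.52 in the shDCUN1D1 arrays, against 2.17 and 2.15 in the shGFP arrays. Its replicates were close together, and the log2 fold change was 1.30 ± 0.29 (adjusted p = 0.590, limma). For both ECPAS and NPLOC4, the shDCUN1D1 arrays lay above the nonspecific control of their own array and the shGFP arrays lay below it. The closeness of their control values is thus that of signals at background. AKIRIN2, which brings proteasomes into the nucleus, read 5.09 and 5.29 in the shDCUN1D1 arrays and 4.37 and 1.99 in the shGFP arrays. There the low value was in 1 control array, and the gene missed the bound at 1.17-fold.

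The 7 symbols that only share the letters of the pattern were PSMC3IP, a meiotic recombination factor, PSME3IP1, a binding partner of the PSME3 activator, and 5 antisense or divergent transcripts (PSMA3-AS1, PSMD14-DT, PSMD6-AS2, PSMD7-DT and PSMG3-AS1). PSME3IP1 read 3.0 and 3.38 in the shDCUN1D1 arrays, against 2.22 and 1.99 in the shGFP arrays. Both knockdown arrays were higher, and the log2 fold change of 1.09 ± 0.30 was past the fold bound, while its other 3 probe sets had values between 0.00 and 0.42. For the called set, the knockdown arrays lay above the nonspecific control and the control arrays below it. The call was lost without shGFP replicate 1 (1.2) and without shGFP replicate 2 (0.97). The other 6 symbols had log2 fold changes between -0.11 and 0.22, and none was past the bound.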

How the data were processed

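Each of 4 Affymetrix arrays held RNA of 1 DU145 culture, 2 arrays per group. The values are log2 signals, deposited by the authors as a single table with a column for each array. Affymetrix Expression Console appears, without a version, in the submitters' processing notes, whereas the methods describe dChip with a smoothing spline and another array type. It is not settled here which of them made the values. Detection calls were not given. Arrays have no read depth, and their number and the signal over the nonspecific control limit the precision.

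The platform annotation gave the gene names. Of 40914 probe sets with a single gene, 40858 were found in RefSeq (GRCh38.p14) by their gene ID. Probe sets naming several genes (864) or none (12835) and 102 control probe sets were left out. Many probe sets can also bind related transcripts. The brightest probe set, by the mean over the 4 arrays, stood for each gene. A linear model with a variance trend was fitted to all 19774 genes in limma (version 3.58.1, R 4.3.3), and p-values were adjusted by Benjamini-Hochberg with a threshold of 0.05. A gene counted as past the fold bound where the near end of its two-sided 90% interval exceeded 1.2-fold, which is the rule of the methods with limma in place of dChip. Errors after ± are limma's moderated standard errors unless given as SD. An exact permutation of 2 against 2 arrays cannot give a p below 0.333. The fits were tested on simulated data.

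The members, role groups, partner and marker lists were chosen with earlier results of these data known. Named were DCUN1D1, members past the fold bound, the extremes of each role group, the catalytic, immunoproteasome, activator, inhibitor, assembly, deubiquitinase and ubiquitin receptor genes, and the partners past the bound with the largest changes. Other genes were named after their values were seen. Alternatives were quantile normalization, median centring, filters on signal, averaging of probe sets within a gene, other variance models, a replicate block, a stricter bound and leaving out each array. Replicate numbers did not pair the arrays. Medians of the role groups after quantile normalization and brightness by the shGFP mean were added after seeing the data.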

Additional observations from a re-analysis of the deposited data

How the results depend on the processing

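The count of proteasome genes past the fold bound upwards (1) became 0 without a variance trend, with unmoderated standard errors (a plain t-test at an unadjusted p under 0.05 gave 0 members too) and with a bound of 1.5-fold, and 2 (PSMD12 and PSMC6) with the replicate block. It was also 0 among genes above the nonspecific control, where PSMD12 was filtered out by its mean signal and not tested. The same filter removed the called probe sets of PSMD12 and PSMD4. Leaving out each array gave 0 to 17 upwards, 0 to 1 downwards and 0 to 9 by adjusted p. It was 17, 1 and 9 without shDCUN1D1 replicate 2, and 0 upwards without shGFP replicate 1 or shGFP replicate 2. Member probe sets upwards (2) became 1 above the nonspecific control, 5 with the replicate block, 0 with unmoderated errors, 1 at 1.5-fold and 0 to 28 over the arrays left out (28 without shDCUN1D1 replicate 2, and 0 without shGFP replicate 1 or 2). Those downwards (1) became 0 above the nonspecific control, with unmoderated errors and at 1.5-fold, and 0 to 2 over the arrays left out (2 without shGFP replicate 1, 0 without shGFP replicate 2). The fold change of DCUN1D1 ranged from -1.02 to -0.47 over the arrays left out, and -1.02, without shGFP replicate 2, was past the bound. Replicate numbers showed no pairing (correlation of same-numbered deviations -0.04 over all genes), and the replicate block changed no other call among the 44 genes. For DCUN1D1, the mean of its probe sets gave -0.22, on the same side of the bound. The causes were not tested, apart from the fewer genes tested under a filter. Over all genes, 311 upwards and 720 downwards became 172 and 412 with the mean of probe sets, 96 and 333 above the nonspecific control, 177 and 673 with unmoderated errors, 85 and 256 at 1.5-fold, 710 and 614 without shDCUN1D1 replicate 1, 2253 and 590 without shDCUN1D1 replicate 2, 39 and 343 without shGFP replicate 2, 279 and 923 without shGFP replicate 1, 351 and 517 with the replicate block, and 352 and 911 without a variance trend. Of 67 named genes, quantile normalization moved 17 by more than the replicate spread and median centring 0. Most of the 84 probe sets were dim, with 25 above the nonspecific control in all 4 arrays and 30 in none, which limits what a difference can show.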
